A study of Sus scrofa with 5 samples.

Results

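MARCO cells were the barcodes of the neonatal pig cecum with at least 200 detected genes, at least 2 unique molecular identifiers (UMIs) of MARCO and none of EPCAM, an epithelial marker. They numbered 319 of 72701 kept barcodes, and none came from the newborn piglets. The MARCO and EPCAM counts chose these cells, so the counts of both genes are given only as a description.

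MARCO is a scavenger receptor of the class A family on the surface of some macrophages, which binds bacteria and particles and passes them on for uptake. Resident macrophages of the gut wall arise largely from blood monocytes, which lose genes such as the S100 calgranulins as they mature and gain complement C1q, class II antigen presentation genes and scavenger receptors. C1Q transcripts are therefore used to mark mature macrophages, and FCN1, which encodes the secreted lectin ficolin 1, to mark monocytes and cells close to them. The gene for MARCO lies on chromosome 15 at 24502935–24541286 of the Sscrofa11.1 assembly.

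The study profiled the scraped cecal mucosa of male Large White piglets at 5 ages by droplet single-cell RNA sequencing. The ages were 0, 1, 7, 14 and 21 days, written as d0 to d21 below, and all piglets received only milk from their sows. Cells of 5 piglets were mixed into 1 library per age after release with EDTA and trypsin, and the labels name no treatment or engineered allele. The kept cells of these libraries held 83394038, 80196009, 47921183, 91863866 and 69522315 UMIs in the order of age. With 1 library per age, age and library cannot be told apart, every difference between ages lacks a replicate check, and no test was made between ages. Intervals given below are exact 95% intervals and cover counting error only.

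For comparison, C1Q cells and FCN1 cells were taken from the same libraries, both without MARCO and EPCAM. C1Q cells had at least 3 UMIs of C1QA, C1QB and C1QC together and at most 1 of FCN1, and numbered 1311. FCN1 cells had at least 2 UMIs of FCN1 and at most 2 of C1Q, and numbered 2278. Between libraries, 37 to 79 kept barcodes had the same sequence. None of these was a MARCO cell in both libraries, and 3 MARCO cells had a barcode that also stood in another library.

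The share of MARCO cells was highest at d14. No MARCO cell was found among 15218 cells at d0 (interval 0 to 0.0242%), where 3 cells would give 0.0197%. There were 9 among 14142 cells at d1 (0.0636%, interval 0.0291 to 0.121%) and 33 among 10272 at d7 (0.321%, 0.221 to 0.451%). At d14 there were 264 among 16177 cells (1.63%, 1.44 to 1.84%), and at d21 13 among 16892 (0.0770%, 0.0410 to 0.132%). The interval at d14 did not overlap that of any other age, and the interval at d7 lay above those of d0, d1 and d21, while the intervals of d1 and d21 overlapped. Of the sum of MARCO, C1Q and FCN1 cells, MARCO cells were 0 of 81 at d0, 9 of 353 at d1 (2.55%), 33 of 891 at d7 (3.70%), 264 of 2161 at d14 (12.2%) and 13 of 422 at d21 (3.08%). So the higher share at d14 was also seen within the phagocytes of that library, while the intervals of d1, d7 and d21 overlapped on this scale.

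**Figure D1:**
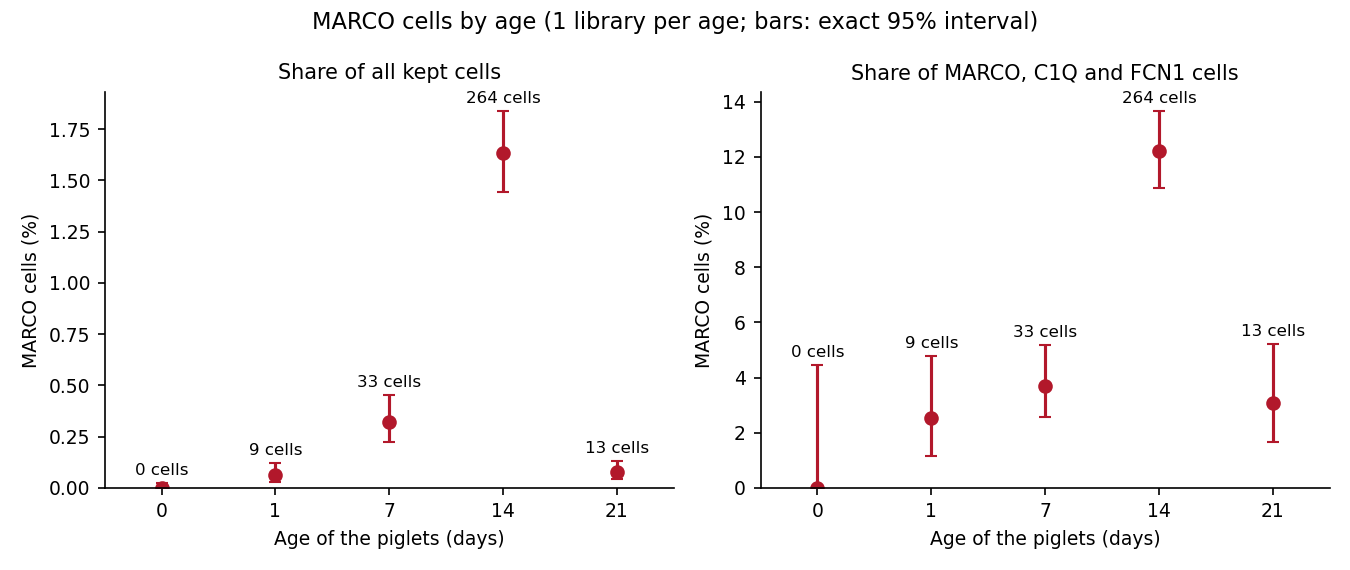
Share of MARCO cells in each library (y axis, percent) against the age of the piglets in days (x axis), of all kept cells on the left and of MARCO, C1Q and FCN1 cells on the right. Points are 1 library each with exact 95% intervals, and d14, with 264 cells, stands above the other ages in both panels.

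Depth differed between the libraries, and with 1 library per age its part in these shares was not tested. The median kept cell held 2859 UMIs at d0, 3005 at d1, 2340 at d7, 4121 at d14 and 2587 at d21. Cells with at least 1000 UMIs were then thinned to 1000, and the others were left out. The condition on EPCAM was applied to the thinned counts, so a cell that lost its EPCAM UMIs by thinning could be counted. At d1, 9 of the 18 cells with at least 2 MARCO UMIs had EPCAM before thinning. How many of them were counted was not recorded. The share of MARCO cells was then 0.830% at d14 (119 of 14345 cells, interval 0.688 to 0.992%). It was 0.0660% at d1 (8 of 12118 cells, 0.0285 to 0.130%), 0.0887% at d7 (7 of 7896 cells, 0.0357 to 0.183%) and 0.0147% at d21 (2 of 13588 cells, 0.00178 to 0.0532%). So d14 still stood apart from the other ages, but d7 no longer did from d1 and d21.

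MARCO counts per cell ranged widely. The median MARCO cell held 8 MARCO UMIs at d1 (2 to 33), 6 at d7 (2 to 28), 7 at d14 (2 to 88) and 4 at d21 (2 to 31). At d14, 44 cells had exactly 2 MARCO UMIs, 70 had 3 to 5, 58 had 6 to 10 and 92 had more than 10. Just outside the threshold, 183 cells at d14 had 1 MARCO UMI and no EPCAM UMI (1.17% of cells without EPCAM), against 17 at d7, 4 at d1 and 17 at d21. T cells should lack MARCO, and of the cells with at least 2 UMIs of the T cell receptor chain CD3E at d14, 55 of 4851 (1.13%) had a MARCO UMI and 16 (0.330%) had 2 or more. Exactly 1 MARCO UMI was found in 39 of these CD3E cells (0.804%, interval 0.572 to 1.10%), and the rule leaves cells with 1 UMI out. Those 16 were all among the 264 MARCO cells at d14. The median CD3E cell at d14 held 4668 UMIs and the median MARCO cell 5707.5.

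The condition on EPCAM removed few cells except at d1. There, 9 of the 18 cells with at least 2 MARCO UMIs also had EPCAM, against 1 of 34 at d7, 2 of 266 at d14 and 1 of 14 at d21. An EPCAM UMI was also seen in 43.4% of CD3E cells at d1, 7.88% at d7, 1.65% at d14 and 5.70% at d21, so EPCAM was widely spread over cells of the d1 library. Of the 264 MARCO cells at d14, 14 had at least 20% of their counts from mitochondrial genes.

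The macrophage label was checked with C1QC, a chain of complement C1q, and CD163, the receptor for haemoglobin bound to haptoglobin. At d14 66.3% of MARCO cells had a C1QC UMI, against 7.15% of CD3E cells without MARCO, and 31.1% had a CD163 UMI (25.5 to 37.0%), against 2.81% of the CD3E cells. At d7 33.3% had C1QC and 54.5% CD163, against 0.275% and 1.24% of CD3E cells. CSF1R, the receptor for macrophage colony stimulating factor, was seen in 95.5% of MARCO cells at d14 (CD3E cells 7.84%) and in 93.9% at d7. Both C1QC and CD163 were seen in 17.4% of MARCO cells at d14, and neither in 20.1% at d14 and 30.3% at d7. The cells were thus myeloid by CSF1R, but C1QC and CD163 together marked only a minority, and CD163 did not set them apart at d14. A CD163 UMI was then seen in fewer MARCO cells (31.1%) than C1Q cells (45.7%, 42.3 to 49.2%) or FCN1 cells (48.0%, 45.0 to 51.1%), and its level was 1.93 counts per 10000 in MARCO cells, 2.32 in C1Q cells and 2.01 in FCN1 cells. A level here is the summed count of a gene over the cells of a group per 10000 counts of the same cells. At d7 the CD163 level was 3.25, 1.03 and 0.966 in the same order, and MARCO cells were the highest group, but without cells that held a UMI of another lineage 9 MARCO cells remained and the CD163 levels were 1.52, 2.80 and 1.04.

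Transcripts of other lineages were present in MARCO cells, as in the groups compared with them. At d14 61.0% of MARCO cells, 64.4% of C1Q cells and 67.4% of FCN1 cells had at least 1 UMI of 9 genes that mark other lineages. Of the 264 MARCO cells, 76 had the plasma cell gene JCHAIN, 67 the collagen gene COL3A1 and 36 CD3E. Summed over their lists at d14, T cell markers reached a level of 1.66 in MARCO, 1.96 in C1Q and 1.48 in FCN1 cells, with CD3E as the most abundant gene in MARCO cells. Plasma cell markers reached 3.25, 5.57 and 6.76, led by JCHAIN, and fibroblast markers 3.97, 7.42 and 4.78, led by COL3A1. Macrophage markers reached 179 in MARCO cells (led by C1QA), 191 in C1Q cells and 32.1 in FCN1 cells. This list holds MARCO and the C1Q genes, by which the groups were chosen, so these sums were partly set by that choice. At d7 the shares with a UMI of another lineage had the opposite order, at 72.7% of MARCO, 67.6% of C1Q and 62.4% of FCN1 cells. Doublets were not removed, and the shares by age and the comparisons with C1Q and FCN1 cells at d14 were recomputed without the cells that held such a UMI.

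MARCO cells spanned the range between C1Q cells and FCN1 cells. By the same limits (C1Q of at least 3 UMIs, FCN1 of at least 2), 93 of the 264 MARCO cells at d14 held C1Q only (35.2%), 77 held both (29.2%), 66 held FCN1 only (25%) and 28 neither (10.6%). At d7 the counts were 2, 9, 21 and 1 of 33 in the same order, so that FCN1 only was the largest class (63.6%) and C1Q only made up 6.06%. At d1 6 of 9 cells held C1Q only and none FCN1 only, and at d21 7 of 13 held FCN1 only and 2 C1Q only. The share of the class with both, 27.3% at d7 and 29.2% at d14, was nearly alike, while FCN1 only was the smaller class at d14 and C1Q only the larger. The likeness depended on the limits, as with 1 UMI each the class with both was 47.3% at d14. At d7 it was at most 36.4% under the alternatives run. The median UMI count at d14 was 4380 in the C1Q only class, 6067 with both, 7031.5 with FCN1 only and 4738 with neither, and the median MARCO count was 7, 11, 5 and 5.

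**Figure D2:**
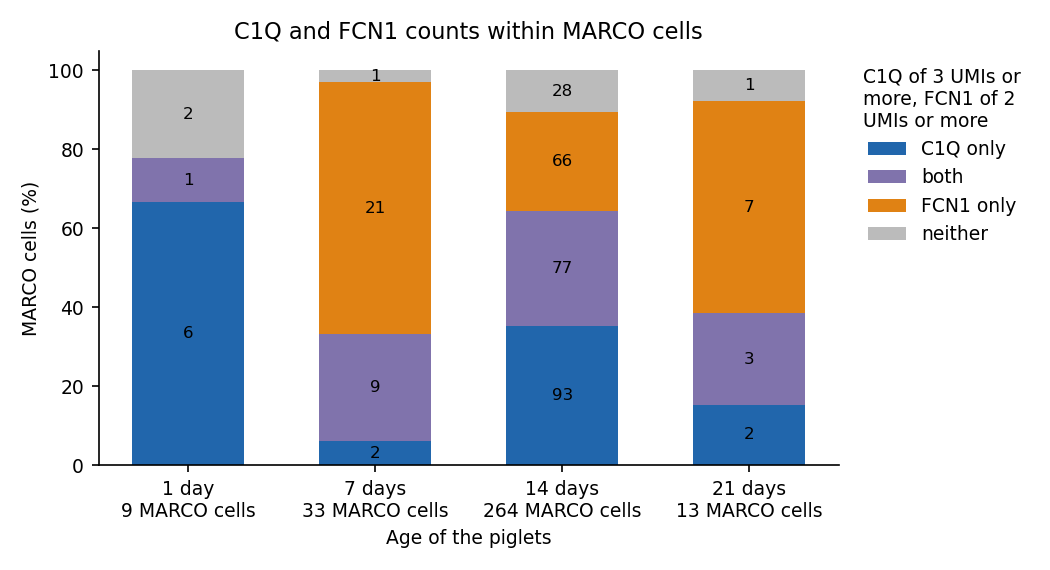
MARCO cells of each library (x axis, age and number of cells) divided by their C1Q and FCN1 counts, as percent of the MARCO cells (y axis), with the number of cells printed in each bar segment. The C1Q only class holds 93 of 264 cells at d14 and 2 of 33 at d7.

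A set of genes was higher in MARCO cells than in both other groups. A gene counted as higher or lower when its level, with 0.1 added, differed by at least 2-fold, among genes with at least 50 counts over the cells compared, and the genes of the gates were left out. With 1 library per age this is a rule of size and not a test. At d14, 135 of 8881 genes were higher in MARCO than in C1Q cells (1.52%) and 136 lower (1.53%), and 169 of 8686 were higher than in FCN1 cells (1.95%) and 112 lower (1.29%). The number higher than both groups was 71 and the number lower than both 11. Of the 71, 54 stayed past 2-fold with edgeR's TMM factors, 53 with DESeq2's size factors and 23 with 0.5 added in place of 0.1, and all 71 stayed higher. Both factors took ALOX5, PLA2G4A and CX3CR1, described below, under 2-fold. Only 16 of the 71 had enough counts to be compared with both groups at d7. All 16 were higher than both there, and 13 by at least 2-fold. The limit counts the UMIs of MARCO cells too, so a high level in them helped a gene to be compared. Among the genes with fewer counts, the level at d7 was not above both groups for LOC100522787, MCT7, RIPOR2, GPRIN3, ELK4, PLAGL2, MGLL, MN1, LOC100510904, ABCC4 and P2RX1.

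LST1, which encodes a small leukocyte membrane adaptor, led these genes. Its level at d14 was 4.95 counts per 10000 in MARCO cells (4.62 to 5.30), 0.714 in C1Q cells and 0.645 in FCN1 cells, and at d7 3.07 (2.37 to 3.90), 0.770 and 0.637. On the log2 scale with 0.1 added, MARCO cells lay above C1Q cells by 2.63 at d14 and 1.86 at d7, and above FCN1 cells by 2.76 and 2.10. MARCO cells were also the highest group among the few cells of the other ages, with LST1 at 8.37 in MARCO cells against 0.408 and 1.5 at d1, and at 3.86 against 1.06 and 0.739 at d21. At d14 73.5% of MARCO cells had an LST1 UMI, against 19.8% of C1Q cells, 20.8% of FCN1 cells and 8.47% of CD3E cells. LST1, on chromosome 7 at 23705491–23712987, overlaps AIF1 by 1236 bases, so reads of the pair could be split between them. AIF1, a calcium-binding macrophage protein, had levels of 22.6, 11.7 and 14.9 in MARCO, C1Q and FCN1 cells at d14, so it was also highest in MARCO cells but by less.

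The 71 genes included adhesion receptors of the G protein coupled class, grouped here after their values were seen. ADGRG1, a receptor known from cytotoxic lymphocytes and from the developing brain, had a level of 3.97 in MARCO, 0.673 in C1Q and 0.371 in FCN1 cells at d14, and of 2.51, 0.880 and 0.517 at d7. Its neighbour on chromosome 6, ADGRG3, lies 2188 bases away and had 0.894, 0.107 and 0.149 at d14. ADGRE5 (CD97), a leukocyte receptor that binds CD55, reached 8.56, 1.68 and 2.75 at d14 and 5.76, 1.56 and 3.27 at d7. All of these were highest in MARCO cells at both ages, although ADGRE5 exceeded FCN1 cells at d7 by only 0.80 on the log2 scale. A UMI of ADGRG1 was also seen in 21.4% of CD3E cells at d14, against 73.9% of MARCO cells, and how much of this was background was not measured. At d21 ADGRG1 was at 3.62 in MARCO cells and 2.62 in C1Q cells, which narrowed the gap.

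HPGD and a few other genes of the 71 are enzymes of lipid mediators, picked here after their values were seen and from no fixed list. HPGD, which breaks down prostaglandins, had a level of 3.35 in MARCO, 0.653 in C1Q and 0.222 in FCN1 cells at d14 and of 2.51, 0.946 and 0.191 at d7. PTGS1, the constitutive cyclooxygenase that starts prostaglandin synthesis, was at 1.54, 0.440 and 0.204 at d14. ALOX5, which starts leukotriene synthesis, was at 0.642, 0.0997 and 0.243 at d14 and 0.883, 0.176 and 0.228 at d7. PLA2G4A, which releases arachidonic acid from membranes, and MGLL, which splits monoacylglycerols, were also in the set. MGLL had no UMI in MARCO cells at d7, where C1Q cells had a level of 0.132 from 6 UMIs. PTGS2, the inducible cyclooxygenase, was not among the 71 and was at 0.258 in MARCO, 0.169 in C1Q and 0.829 in FCN1 cells at d14.

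PLVAP, a protein of endothelial fenestrae and caveolae, was at 5.33 in MARCO, 1.17 in C1Q and 0.884 in FCN1 cells at d14 and at 2.55, 0.924 and 0.449 at d7. The other endothelial markers did not show the same gap in level, as VWF had 1 UMI, PROX1 2, FLT4 2 and CDH5 12 over all 264 MARCO cells at d14, and PECAM1, which myeloid cells also express, had a level of 0.990 against 0.488 and 0.606. The endothelial list summed to 6.42 in MARCO, 1.69 in C1Q and 1.5 in FCN1 cells, with PLVAP as the most abundant gene. A PLVAP UMI was seen in 75.8% of MARCO cells and in 23.9% of CD3E cells, so part of the signal was spread over cell types. At d1 PLVAP was at 4.73 in MARCO and 4.48 in C1Q cells, and at d21 it was higher in C1Q cells (2.15) than in MARCO cells (1.69).

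Further genes described here, chosen after their values were seen, encode leukocyte receptors and transcription factors. Of the fixed list of transcription factors, 2 of 15 tested were higher than in C1Q cells (SPIC and CEBPB), and against FCN1 cells SPIC was higher and BHLHE40 lower of 14. Over all genes 1.52% were higher than in C1Q cells, and 1.95% higher and 1.29% lower than in FCN1 cells. With 0.5 added in place of 0.1, neither SPIC nor CEBPB stayed past 2-fold against C1Q cells. Against FCN1 cells SPIC stayed past 2-fold and BHLHE40 did not. ITGAL, the alpha chain of the integrin LFA-1, was at 3.46, 0.595 and 0.988 in MARCO, C1Q and FCN1 cells at d14 and at 2.09, 0.528 and 0.781 at d7. CD300C, an activating receptor of myeloid cells, was at 15.1, 4.89 and 6.09 at d14, 12.9, 4.07 and 5.45 at d7, 13.1, 3.74 and 6.15 at d1 and 12.4, 6.75 and 6.16 at d21. Its level in MARCO cells thus stayed between 12.4 and 15.1 at all 4 ages. CX3CR1, the receptor for the chemokine fractalkine, was at 1.64, 0.518 and 0.745 at d14 and 1.16, 0.264 and 0.354 at d7. SPIC, a transcription factor known from red pulp macrophages, which take up red cells, was at 0.978, 0.317 and 0.181 at d14 and at 0.883, 0.0660 and 0.0646 at d7, where 1 cell gave 52.6% of its UMIs. TCF7L2, a transcription factor of the Wnt pathway, was at 1.97, 0.709 and 0.681 at d14 and at 2.79, 0.858 and 0.972 at d7. FCGR3A, the Fc receptor CD16, was the highest in MARCO cells at both ages, at 36.2, 16.8 and 24.0 at d14 and 39.9, 13.7 and 21.7 at d7, but stayed under 2-fold over FCN1 cells and was also seen in 65.8% of CD3E cells.

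The leading 20 genes were also compared without the cells that held transcripts of other lineages. Then 103 MARCO, 294 C1Q and 349 FCN1 cells remained at d14, and all 20 genes were still at least 2-fold higher in MARCO cells than in both groups. LST1 was then at 6.67 in MARCO, 1.27 in C1Q and 0.960 in FCN1 cells, and PLVAP at 7.10, 1.42 and 0.973. At d7 only 9 MARCO, 23 C1Q and 296 FCN1 cells remained. LST1 was then at 5.21, 3.24 and 0.972 and ADGRG1 at 5.21, 3.24 and 0.356, whereas C1Q cells were the highest for PLVAP (1.30 in MARCO, 1.77 in C1Q cells) and HPGD (1.74 and 2.95). With all cells kept, MARCO cells were the highest group for 17 of the 20 at d1 and for 17 at d21, where C1QL2, SDC3 and LOC100621431 at d1 and PLVAP, KANK1 and LOC110255267 at d21 were the exceptions. Within the C1Q only class, set against C1Q cells, 64 of the 71 genes were at least 2-fold higher, within the FCN1 only class, set against FCN1 cells, 46 were, and 39 were in both. In all but 1 of the 71 the level was higher in both classes. Of all genes past 2-fold, 100 of the 135 higher and 73 of the 136 lower than C1Q cells stayed so in the C1Q only class when the limit of 50 counts was not applied again, and 74 of the 169 higher and 69 of the 112 lower than FCN1 cells in the FCN1 only class.

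MARCO cells were also divided by their MARCO count, the value that chose them, as a description. From cells with 1 MARCO UMI through those with 2, 3 to 5, 6 to 10 and more than 10 at d14, LST1 was at 1.48, 2.27, 2.84, 6.06 and 6.86, and PLVAP at 1.76, 2.52, 3.61, 4.17 and 8.23. FCGR3A went from 21.2 through 24.1, 31.7 and 36.7 to 44.2. For ADGRG1 the order was less regular, with 1.30, 3.48, 3.68, 4.73 and 3.97, and HPGD was at 0.960, 2.07, 2.20, 5.14 and 3.69. SLA-DRA, a class II chain, stayed between 44.9 and 54.6. The median cell of these classes from 2 MARCO UMIs on held 5751, 5480, 4994 and 6124.5 UMIs in total. C1QA was less even, at 28.9, 33.4, 29.4, 49.8 and 66.1, while S100A9 was lowest in cells with more than 10 MARCO UMIs, at 0.340.

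**Figure D3:**
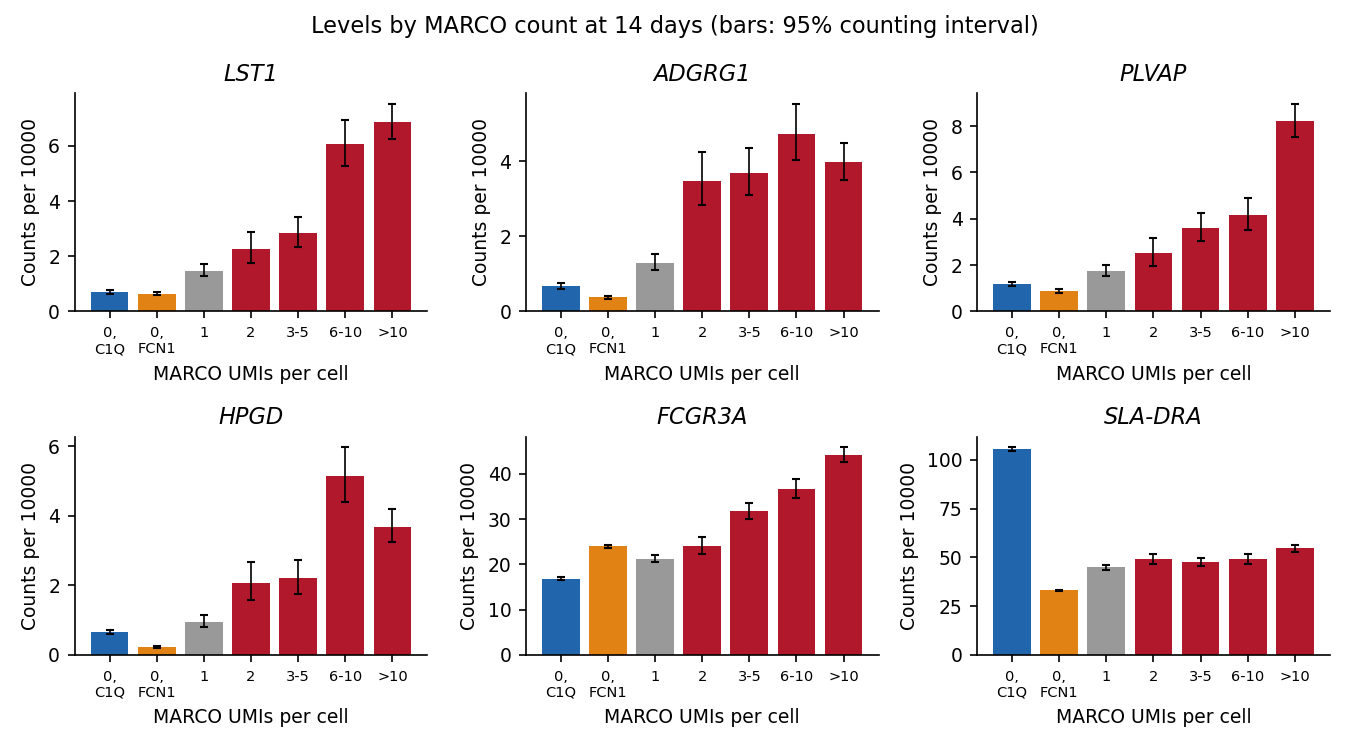
Levels of LST1, ADGRG1, PLVAP, HPGD, FCGR3A and SLA-DRA at d14 (y axis, counts per 10000) in C1Q cells, FCN1 cells and cells grouped by their MARCO UMIs (x axis), with 95% counting intervals. LST1 reaches 6.86 in cells with more than 10 MARCO UMIs, and SLA-DRA stays between 44.9 and 54.6 from 1 MARCO UMI on.

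Against C1Q cells, MARCO cells had lower levels of class II antigen presentation genes. Of the 13 genes on the antigen presentation list, 5 were lower at d14, beside 1.53% of all genes, and none higher, with a median log2 ratio of -0.72 beside -0.02 over all 8881 genes. SLA-DRA was at 50.9 in MARCO and 106 in C1Q cells at d14, and at 27.6 and 80.7 at d7. The chains SLA-DRB1 (20.3 against 49.1), SLA-DQA1 (31.3 against 74.0) and SLA-DQB1 (35.4 against 80.9) were lower at d14 too, and all 3 were lower at d7 by larger log2 ratios, of -1.85, -1.67 and -1.77. CD74, the invariant chain that guides class II molecules, was at 103 and 171 at d14 (log2 ratio -0.72), within 2-fold, and at 54.5 and 140 at d7 (-1.36). FCN1 cells were below MARCO cells in all of these at d14, with SLA-DRA at 33.1 and CD74 at 57.4, so MARCO cells stood between the other groups. The order also held among MARCO cells, as SLA-DRA at d14 was at 61.8 in the C1Q only class, 48.7 with both and 41.5 with FCN1 only. In the C1Q only class set against C1Q cells, all 5 genes were lower but none by 2-fold, with log2 ratios of -0.77 for SLA-DRA, -0.89 for SLA-DRB1, -0.91 for SLA-DQA1, -0.87 for SLA-DQB1 and -0.84 for SLA-DOB. Without cells of other lineages SLA-DRA also fell within 2-fold (-0.95), and SLA-DOB did with TMM or DESeq2 factors.

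Of the fixed lists, 1 of 6 macrophage markers tested (MRC1) and 0 of 5 dendritic cell markers were lower than in C1Q cells, beside 1.53% of all genes. The genes described next are from the named ones of largest fold. CST3, a secreted inhibitor of cysteine proteases, was at 9.63 in MARCO and 39.6 in C1Q cells at d14 and at 5.30 and 32.5 at d7. MRC1, the mannose receptor, was at 0.636 and 3.02 at d14 (log2 ratio -2.09) and at 0.790 and 1.25 at d7 (-0.61). CD1.1, of the lipid presenting CD1 family, was at 0.0840 and 1.5 at d14 and 0.139 and 2.33 at d7, and IL4I1, an amino acid oxidase, at 0.0840 and 1.09, then 0.0929 and 2.36. CXCL9, a chemokine induced by interferon gamma, was at 0.0180 and 0.676 at d14. At d7 no CXCL9 UMI was found in MARCO cells, which lay at least 17.2-fold below the 2.40 of C1Q cells (3 UMIs over the group). The adhesion molecule JAML was at 0.498 and 2.98 at d14. MS4A2, a chain of the mast cell IgE receptor, was also in this set at 0.240 and 1.85, and the mast cell list summed to 0.432 in MARCO and 2.05 in C1Q cells. Of 10 resident macrophage genes tested, AXL, MRC1 and STAB1 were lower and CX3CR1 higher at d14, beside 1.53% and 1.52% of all genes.

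The higher genes against C1Q cells included the calgranulins S100A8, S100A9 and S100A12, 3 of 7 monocyte genes tested, beside 1.52% of all genes. S100A9 was at 1.25 in MARCO and 0.0427 in C1Q cells at d14, yet only 5.30% of MARCO cells had a UMI of it and 1 cell gave 34.1% of them. In the C1Q only class S100A9 was at 0, so the difference lay in the MARCO cells with FCN1 or with neither. Against C1Q cells, no gene differed by 2-fold among 13 interferon response, 12 dissociation stress, 10 proliferation and 9 complement genes. Of 18 lysosomal genes only ACP5, the tartrate-resistant acid phosphatase, was lower (2.12 against 5.49), beside 1.53% of all genes. Of 10 genes of iron and haem handling SPIC and SLC11A1, a metal transporter of phagosomes, were higher. At d7, 112 of 1776 genes were higher (6.31%) and 80 lower (4.5%). Of 48 genes higher at d14 that could be compared at d7, 47 were higher there and 39 by 2-fold, and of 41 lower, 38 were lower and 28 by 2-fold. Without the limit on counts at d7, 123 of the 135 higher and 113 of the 136 lower genes kept their direction there.

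**Figure D4:**
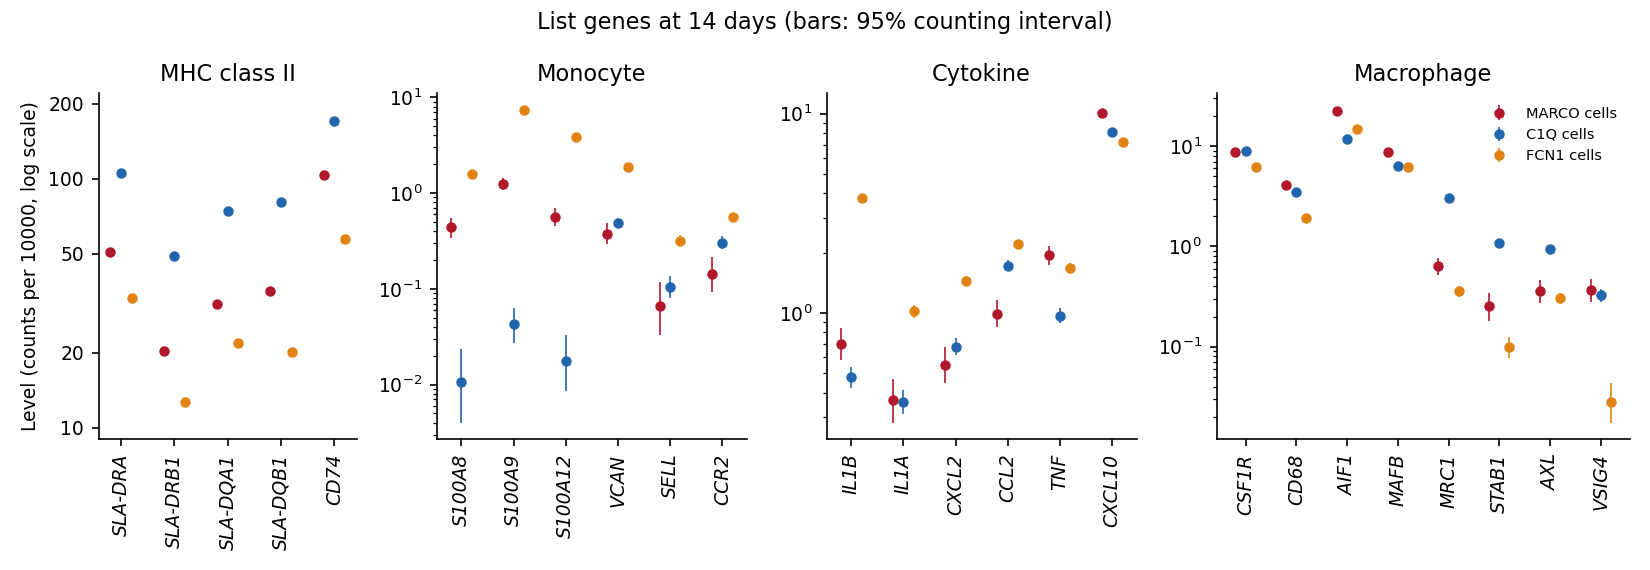
Levels at d14 (y axis, counts per 10000, log scale) of genes from 4 groups (x axis) in MARCO, C1Q and FCN1 cells, with 95% counting intervals. SLA-DRA is at 50.9 in MARCO cells, between 106 in C1Q and 33.1 in FCN1 cells, and S100A9 at 1.25, between 0.0427 and 7.31.

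Against FCN1 cells, MARCO cells had lower levels of monocyte and cytokine genes. FCN1 cells were chosen with at most 2 C1Q UMIs, whereas 64.4% of MARCO cells at d14 held at least 3. The FCN1 only class was 25% of MARCO cells. In that class, without the limit on counts, 69 of the 112 lower and 74 of the 169 higher genes stayed past 2-fold. All 112 lower and 164 of the 169 higher genes kept their direction. How far the lists compared with FCN1 cells depended on this choice of cells was not tested. Of 7 monocyte genes tested at d14, 6 were lower, beside 1.29% of all genes, and none higher, with a median log2 ratio of -1.64 beside 0.10 over all 8686 genes. S100A9 was at 1.25 in MARCO and 7.31 in FCN1 cells at d14 and at 4.55 and 20.8 at d7, and S100A12 at 0.564 and 3.87, then 2.23 and 8.01. VCAN, a matrix proteoglycan of monocytes, was at 0.378 and 1.86 at d14, and CCR2, the chemokine receptor by which monocytes leave the marrow, at 0.144 and 0.562. S100A6 (1.22 against 8.50) and S100A4 (1.16 against 8.06) were among the 12 genes of largest fold. So was the decoy receptor for interleukin 1, IL1R2, at 0.0660 in MARCO and 1.72 in FCN1 cells at d14. It had no UMI in MARCO cells at d7, at least 14.8-fold below FCN1 cells.

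Of 16 cytokine genes tested, 6 were lower than in FCN1 cells, beside 1.29% of all genes, and none higher, namely IL1B, IL1A, CXCL2, CCL2, OSM and PTGS2, an enzyme of prostaglandin synthesis kept on this list. With 0.5 added in place of 0.1, only IL1B of these 6 stayed past 2-fold, and 4 of the 6 monocyte genes did. IL1B was at 0.702 and 3.79 at d14 and at 0.929 and 8.89 at d7. TNF was not among them, at 1.95 in MARCO, 0.970 in C1Q and 1.69 in FCN1 cells. Of 12 dissociation stress genes, DNAJB1, HSPA6 and FOS were lower, beside the same 1.29%, with FOS at 7.74 against 16.7.

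Against FCN1 cells, 1 of 6 macrophage markers (CD68) and 1 of 7 resident macrophage genes (CX3CR1) were higher and none lower, beside 1.95% of all genes higher, and neither stayed past 2-fold with TMM or DESeq2 factors. Of 18 lysosomal genes, 5 were higher and none lower: CTSD, ACP5, LGMN, GPNMB and LIPA. CTSD, the aspartic protease cathepsin D, was at 9.31 and 3.26 at d14 and at 3.67 and 2.28 at d7. Of 10 complement genes C3, C3AR1 and VSIG4 were higher, with the anaphylatoxin receptor C3AR1 at 1.18 and 0.337 and the phagocytic receptor VSIG4 at 0.366 and 0.0281. Of 8 genes of lipid handling APOE (6.77 against 2.30) and the cholesterol exporter ABCA1 (1.62 against 0.468) were higher, and of 10 iron and haem genes SPIC, the iron exporter SLC40A1 (0.546 against 0.171) and biliverdin reductase BLVRA (1.34 against 0.593). C3, LGMN and BLVRA fell under 2-fold with TMM factors, and with DESeq2 factors LIPA as well. With 0.5 added, 3 of the 5 lysosomal, 1 of the 3 complement and 1 of the 3 iron and haem genes (SPIC) stayed past 2-fold. APOE and ABCA1 also stayed past it, while CD68 and CX3CR1 did not. CD68, a lysosomal membrane protein of macrophages, was at 4.12 in MARCO, 3.49 in C1Q and 1.91 in FCN1 cells.

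The balance of higher and lower genes against FCN1 cells rested on the scaling. The 169 higher and 112 lower genes became 122 and 148 with edgeR's TMM factors, and 124 and 157 with DESeq2's size factors, which lowered every log2 ratio by 0.19 and 0.20. Against C1Q cells these factors moved the ratios by 0.02 and 0.03. At d7, 220 of 6026 genes were higher than in FCN1 cells (3.65%) and 409 lower (6.79%). Of 111 genes higher at d14 that could be compared at d7, 101 were higher there and 64 by 2-fold, and of 108 lower, 103 were lower and 75 by 2-fold. Without the limit on counts at d7, 148 of the 169 higher and 106 of the 112 lower genes kept their direction there.

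Of 4282 genes compared between MARCO cells at d14 and d7, 245 were higher at d14 (5.72%) and 65 lower (1.52%). A gene was compared if it had at least 50 counts at 1 or both of these ages. MARCO cells held 1667090 counts at d14 and 215294 at d7, so genes of low level entered mostly through d14. The balance between the numbers of higher and lower genes was therefore partly set by this limit. Genes of other lineages were among the higher ones, with 2 of 2 T cell markers tested (CD3E and CD3G), 2 of 3 NK or cytotoxic markers (GNLY and GZMB), 3 of 3 plasma cell markers, COL1A1 and ACTA2. CD3E was at 0.756 at d14 and 0.139 at d7 (3 UMIs), and GNLY, a granule protein of cytotoxic lymphocytes, at 2.99 and 0.186. C1QB was at 40.1 at d14 and 4.13 at d7 in MARCO cells, and at 54.7 and 16.3 in C1Q cells. Of 6 proliferation genes tested, 5 were higher at d14, with TOP2A, which untangles DNA in dividing cells, at 0.696 against 0.0464 (1 UMI at d7), and CDK1, which drives entry into mitosis, at 0.306 against 0.0464 (1 UMI). Without cells of other lineages TOP2A was at 0.425 and CDK1 at 0.193 at d14. Both genes entered the comparison through their counts at d14, so their direction was partly set by the limit on counts. Of 12 dissociation stress genes 5 were lower, with FOSB at 1.03 against 7.15. FOSB was also lower at d14 in C1Q cells (1.17 against 7.07) and FCN1 cells (1.86 against 9.03), so this difference was not particular to MARCO cells.

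Among genes higher at d14, LOC100152327 had the largest log2 ratio, at 44.6 at d14 and 0.325 at d7, and was at 4.47 at d14 without the cell that held most of its UMIs. GZMB, a granule protease of cytotoxic lymphocytes, was at 2.07 at d14 and 0.418 without its top cell. Several other genes of largest difference had a count of 0 at d7. ADAMDEC1, a metalloprotease of gut macrophages, was at 1.54 at d14, at least 11.02-fold above d7, where 3 UMIs over the group would give 0.139. SPON2, a secreted opsonin, was at 0.876, at least 6.285-fold above, with 35.6% of its UMIs from 1 cell, and ACP5 at 2.12, at least 15.2-fold above. Without cells of other lineages these levels at d14 were lower, at 0.483 for ADAMDEC1, 0.503 for SPON2 and 0.773 for ACP5. JCHAIN, one of the genes by which those cells were chosen, was at 2.15, at least 15.5-fold above d7, with 69.6% of its UMIs from 1 cell. The plasma cell list summed to 3.25 at d14 and 0.279 at d7, and JCHAIN was also higher at d14 in both other groups of cells. The part of these transcripts in the differences was not tested.

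Several genes with a much higher level at d7 were set by single cells. HBB, the beta chain of haemoglobin, was at 66.4 counts per 10000 at d7, but 1 cell held 1412 of the 1430 UMIs, in a total of 2476 UMIs. The level without it was 0.846. SPP1, the secreted phosphoprotein osteopontin, was at 45.5 at d7, with 979 of 980 UMIs in 1 cell that also held 160 of 198 UMIs of the fatty acid binding protein FABP5 and 46 of 98 of S100A9. Without it SPP1 was at 0.0496. All 211 UMIs of CXCL13, a chemokine for B cells, came from 1 other cell at d7, and 163 of 326 of CXCL10, a chemokine induced by interferon, from another. PHLDA2 was at 4.92 at d7 and at 2.28 without its top cell, against 0.804 at d14, and CTSL, a lysosomal protease, at 2.42 and 1.44, against 0.132. Without cells of other lineages PHLDA2 was at 1.74 and CTSL at 0.434 at d7. Single cells also gave much of some levels at d14, as for LOC100152327, GZMB and JCHAIN above.

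The 9 MARCO cells at d1 and the 13 at d21 were too few for a count of genes. At d1 they had C1QA at 74.2, against 147 in C1Q cells and 0.25 in FCN1 cells, 2 groups chosen by their C1Q counts. No UMI of S100A8, S100A9 or S100A12 was found in MARCO cells at d1, where 3 UMIs would give 1.09. These genes were at 14.0, 68.5 and 39.8 in FCN1 cells of that age. At d21 no UMI of these genes was found in MARCO cells either (3 UMIs would give 0.362), against 2.16, 8.70 and 5.19 in FCN1 cells. SLA-DRA lay between the other groups at both ages, at 16.0 against 84.4 and 5.60 at d1 and at 27.3 against 63.9 and 19.7 at d21. FCGR3A was highest in MARCO cells at both ages, at 24.0 against 15.4 and 14.8 at d1 and at 55.0 against 15.5 and 33.4 at d21.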

How the data were processed

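Cecal mucosa of 5 piglets per age was sequenced as 1 droplet library per age. The authors deposited raw UMI counts as 1 matrix per library, made with Cell Ranger 3.1.0 and STAR on susScr11 (Sscrofa11.1), for 20648 genes. The labels name version 3 of the library kit and the methods version 2. Each deposited matrix has more barcodes than the count to which the methods say Cell Ranger was forced.

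Barcodes with at least 200 genes were kept (72701). Doublets were not removed. An alternative left out cells with a UMI of 9 other-lineage genes. Counts were summed per library and group of cells and divided by the summed counts of the same cells, times 10000. Log2 ratios used 0.1 added to both levels, and a gene was higher or lower than in C1Q or FCN1 cells at 2-fold or more with at least 50 counts over both groups. Between d14 and d7 the limit was at least 50 counts at 1 or both of the ages. MARCO, EPCAM, FCN1, C1QA, C1QB and C1QC were left out of the calls against C1Q and FCN1 cells, and FCN1 and the C1Q genes were kept in those between d14 and d7. Only 2 libraries held at least 20 cells of each group, fewer than the 3 needed for the planned edgeR test across libraries, so no test was run and no p-value is given. The members, gene lists and groups were chosen with earlier results of these data known. Named genes are those of the lists, plus the 12 of largest fold per direction at d14 with the same direction at d7 and a level of at least 0.5, and the 8 per direction between d14 and d7. The rule set d14 against another age with at least 50 MARCO cells. As there was none, d7 was taken after seeing the data, and so was the set higher than both groups. Only a part of each set is described. Gene positions are from the RefSeq table of Sscrofa11.1. Shares have Clopper-Pearson and levels exact Poisson 95% intervals. The scripts were tested on simulated data. Tools were Python 3.11.15, NumPy 2.4.6, SciPy 1.17.1, pandas 2.3.3, matplotlib 3.10.9 and, for scaling factors, R 4.3.3, edgeR 4.0.16 and DESeq2 1.42.0.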

Additional observations from a re-analysis of the deposited data

Results flagged for a closer look

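The ratio of SPP1 between MARCO and C1Q cells had opposite signs at d14 and d7. On the log2 scale with 0.1 added it was -2.58 at d14 and 2.72 at d7. A single cell gave 53.3% of the SPP1 UMIs of MARCO cells at d14 and 99.9% at d7, and the difference between the ages was not tested.

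ACP5 also had opposite signs between MARCO and FCN1 cells, with a log2 ratio of 2.99 at d14 and -1.73 at d7. MARCO cells had no ACP5 UMI at d7, so the latter value depends on the 0.1 added, and against 3 UMIs over the group FCN1 cells were at least 1.66-fold higher. At d14 1 cell gave 23.8% of the ACP5 UMIs. The difference between the ages was not tested.

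Cells with both MARCO and EPCAM, which the rule leaves out, numbered 9 at d1, as many as the MARCO cells of that library, and the highest of them held 135 MARCO UMIs. Summed over these 9 cells, C1QA was at 40.7 counts per 10000, FCGR3A at 8.94, PLVAP at 6.80, HPGD at 4.03 and LST1 at 3.40. In the MARCO cells of the same library C1QA was at 74.2, FCGR3A at 24.0, PLVAP at 4.73, HPGD at 4.00 and LST1 at 8.37. Whether these barcodes held more than 1 cell was not tested.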

How the results depend on the processing

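The share of MARCO cells was highest at d14 under every alternative run. At d14 it was 2.76% with 1 MARCO UMI, 1.36% with 3, 3.57% without cells with another lineage's UMI, and 0.830% and 0.482% thinned to 1000 and 500 UMIs. At d7 it was 0.487% with 1 MARCO UMI and 0.0887% and 0.0487% thinned, at d21 0.178%, 0.207% without other lineages, 0.0147% and 0.00592%, and at d1 0.127% with any EPCAM and 0.202% without other lineages. The setting without other lineages also took such cells out of the total, 82.2% of the kept cells at d14. There 103 of the 264 MARCO cells remained, so these shares are not of the same total as the others. With 1 UMI each as limits, C1Q only was 27.3%, both 47.3% and neither 4.17% at d14, and with 3 MARCO UMIs neither was 0 at d7. Higher and lower genes against C1Q cells at d14 (135 and 136) became 54 and 42 with 0.5 added before the ratio, lower ones 72 with 1 MARCO UMI and 225 with each cell weighted equally, and the counts ranged from 112 to 135 and from 80 to 136 when a library was left out. Against FCN1 cells (169 and 112) they became 44 and 51 with 0.5 added, 310 and 197 with equal weights, 83 higher in the FCN1 only class and 177 lower without other lineages, and ranged from 169 to 220 and from 112 to 409. LOC100522787 reversed against C1Q cells at d7 alone (-0.63), as did S100A9 (-0.51) and S100A12 (-0.24) in the C1Q only class, and LOC396781 against FCN1 cells without other lineages (0.31). Apart from pseudocount and filter, the cause was not tested. Without cells of other lineages, 95 of the 135 genes higher and 81 of the 136 lower than C1Q cells stayed past 2-fold with at least 50 counts, and 107 of the 169 higher and 91 of the 112 lower than FCN1 cells, while 134, 130, 168 and 107 kept their direction. That setting moved 82 levels of list or named genes in MARCO cells by over 1.5 times, among them S100A9 (0.217) and C1QB (1.08) at d7. The groups of cells share their libraries, but the edgeR and DESeq2 tests with library as a block were not run, by the limit set of 3 libraries with 20 cells of each group. Scaling by total counts is the setting reported. Levels of 33 MARCO cells at d7 rest on few UMIs, and 1776 genes could be compared there with C1Q cells, against 8881 at d14.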
